A study of Homo sapiens with 60 samples.

Results

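The messenger RNA of 10 genes of acetyl-CoA supply and fatty acid synthesis was followed in HT29 cells, a line grown from a human colorectal adenocarcinoma. The genes were taken by symbol from the deposited table of 60675 genes: ACSS2, ACSS1, ACLY, ACACA, FASN, SCD, ELOVL6, FADS1, FADS2 and SREBF1. All 10 were found. They stand for the steps from acetyl-CoA to desaturated fatty acids and for the factor that controls those steps.

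Cells build fatty acids from acetyl-CoA in the cytosol. ACLY makes that acetyl-CoA from citrate exported by mitochondria, and ACSS2 makes it from free acetate, also in the nucleus, where it feeds histone acetylation. ACSS1 carries out the acetate reaction inside mitochondria. ACACA commits acetyl-CoA to synthesis as malonyl-CoA, FASN assembles palmitate with NADPH as reductant, ELOVL6 lengthens the chain, and SCD, FADS1 and FADS2 add double bonds. SREBF1 encodes SREBP1, the transcription factor under which most of these genes are textbook targets.

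RNA was sequenced from cells kept for 24 h with water extracts of single herbs or of herbal formulas. The single herbs were citrus peel (labelled Citri Unshius Pericarpium), cimicifuga (Cimicifugae Rhizoma), bupleurum (Bupleuri Radix) and aconite (Aconiti Lateralis Radix Preparata). Yijung-tang, Banhasasim-tang and Bojungikgi-tang are formulas of several herbs. The labels give every extract at 500, 100 and 20 µg/mL, here high, medium and low dose. The design text states lower doses for extracts that inhibited the cells below 500 µg/mL, and the labels mark no such extract, so that the true doses of an extract may be lower. The vehicle is 0.1% DMSO in the sample labels and 2% in the design text. All groups are the same line with no genetic change named. The tests used 57 libraries in 19 groups of 3, for vehicle and 6 extracts. Bojungikgi-tang, sequenced as a single library at each dose, is given by its values only. Whether replicates came from separate cultures is not in the labels, and p-values therefore rest on the spread between libraries, which may be technical.

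The libraries held 10.35 to 40.05 M counts (median 23.83 M). The first number of the sample codes puts citrus peel with cimicifuga (set 5), bupleurum with aconite (set 6), both other tested formulas together (set 7), Bojungikgi-tang apart (set 8), and vehicle in a set of its own. Vehicle and library set therefore cannot be told apart, whereas doses of the same extract were compared within a set. Replicate 2 of aconite high and replicate 2 of Banhasasim-tang high stood apart. Their root-mean-square log2 deviation from the group mean was 0.325 and 0.304, and ribosomal protein genes lay a median of 0.53 and 0.43 above it over 77 genes. Genes with longer exons were lower there (rank correlation of deviation with exon length -0.51 and -0.65, over 9923 genes). Vehicle replicate 1 (0.136, with a rank correlation of -0.58) and bupleurum medium replicate 2 (0.163) were set aside with them in an earlier look at these data. Of the libraries kept, 4 deviated more than vehicle replicate 1, and 2 of them more than bupleurum medium replicate 2: Banhasasim-tang high replicates 3 (0.187) and 1 (0.144) and aconite high replicates 1 (0.184) and 3 (0.157), whose group means include the replicate that stood apart. Member results that rest on any of these 4 libraries are given with and without them, as are other genes where the call or size moved. Of the epithelial markers, KRT8 averaged 6064, KRT18 3413 and EPCAM 523 CPM (counts scaled to the size of the library), whereas CDX1 stood at 1.16 CPM.

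Promoter windows of 300 bases (250 before and 50 after a transcript start) were held by the RefSeq table, build GRCh38.p14, for 9 of the 10 genes, with 15 windows in all. Those of ACSS2 and the main one of ACSS1 are shown because these are the genes that fell. Each reads 5′ to 3′ on the gene's strand, and capitals mark a GC box (GGGCGG, or CCGCCC on the other strand) or a CCAAT box (CCAAT, or ATTGG on the other strand).
ACSS2, upstream start, chr20:34874739-34875038, plus strand: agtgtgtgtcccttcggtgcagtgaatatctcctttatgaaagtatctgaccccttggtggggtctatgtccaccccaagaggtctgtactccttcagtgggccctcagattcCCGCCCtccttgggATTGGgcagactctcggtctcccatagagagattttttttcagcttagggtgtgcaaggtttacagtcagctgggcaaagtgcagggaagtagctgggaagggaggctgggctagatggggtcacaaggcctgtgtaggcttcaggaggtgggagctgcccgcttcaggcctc
ACSS2, downstream start, chr20:34876362-34876661, plus strand: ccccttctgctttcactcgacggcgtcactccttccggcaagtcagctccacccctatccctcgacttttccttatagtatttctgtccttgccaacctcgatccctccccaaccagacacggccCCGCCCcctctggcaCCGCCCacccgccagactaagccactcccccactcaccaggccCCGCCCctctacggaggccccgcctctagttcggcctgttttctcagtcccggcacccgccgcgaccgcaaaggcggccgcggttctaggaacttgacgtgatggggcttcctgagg
ACSS1, chr20:25058090-25058389, minus strand: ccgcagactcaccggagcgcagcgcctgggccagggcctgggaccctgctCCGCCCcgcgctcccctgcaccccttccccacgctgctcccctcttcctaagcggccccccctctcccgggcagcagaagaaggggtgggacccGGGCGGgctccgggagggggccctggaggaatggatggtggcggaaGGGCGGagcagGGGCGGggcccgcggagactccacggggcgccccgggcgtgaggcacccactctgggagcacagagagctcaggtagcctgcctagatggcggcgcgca
The upstream ACSS2 window held 1 match to each motif, at -137 (GC box) and -123 (CCAAT box) from the start. The downstream window held GC boxes at -125, -110 and -67, and that of ACSS1 held 4, at -200, -106, -60 and -49. A second ACSS1 window in the table held none of the motifs. Over all 15 windows, 12 held GGGCGG (44.9% of 34943 windows in the table did) and 7 held CCAAT (34.6%). The sterol response element core TCACNCCAC, in 1.12% of windows, matched in 0 of the 15, as did the E-box CACGTG (7.23%) and the LXR direct repeat (0.02%). Both strands were searched, no marked matches overlapped in these windows, and a match is a run of letters, not a shown binding site.

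On a per-length scale (RPKM, CPM per kilobase of exon), the members spanned a wide range. SCD stood highest, at 316 ± 28.7 RPKM in vehicle (SD, n = 3), ahead of FASN at 110 ± 9.76, ACLY at 70.4 ± 3.94 and ACACA at 38.3 ± 5.23. SREBF1 followed at 20.7 ± 0.593, ELOVL6 at 9.88 ± 0.958 and ACSS1 at 8.26 ± 0.181. ACSS2 was at 4.18 ± 0.1 and FADS1 at 0.524 ± 0.0834, and FADS2, with 0 to 17 counts in a library, was close to the detection limit at 0.0167 ± 0.0145. Neighbours in this order kept their places in 60 of 60 libraries, except FASN over ACLY and ELOVL6 over ACSS1, which held in 59. The length used was that of all annotated exons of a gene merged (13008 bases in ACACA, 5217 in ACLY), and the order depends on it. By mean CPM over the 60 libraries, ACACA (546) stood above ACLY (382). The main desaturase and the synthesis enzymes were thus abundant, and the acetyl-CoA synthetases and the polyunsaturated desaturases were at the low end. All 10 genes passed the filter on low counts, which left 16485 genes.

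High against low dose was the comparison within each extract. ACSS2 fell in citrus peel, cimicifuga and Banhasasim-tang, ACSS1 fell in aconite, and the other 8 genes passed the test in none of the 6 tested extracts. No member rose. Thus 1 of 10 members was lower in citrus peel (0.0485% of all tested genes were), 1 of 10 in cimicifuga (0.479%), 1 of 10 in Banhasasim-tang (0.146%) and 1 of 10 in aconite (4.85%). In bupleurum (0.121%) and Yijung-tang (0.0182%) the count was 0 by edgeR's quasi-likelihood test and 0 by DESeq2, with 1 and 0 members at an unadjusted p under 0.05. The median log2 change over the 10 members was -0.05 in citrus peel, -0.07 in cimicifuga, -0.03 in bupleurum, -0.17 in aconite, -0.05 in Yijung-tang and -0.16 in Banhasasim-tang, against medians of 0.00 over all tested genes, or 0.01 in aconite. Without the 4 libraries the medians of aconite and Banhasasim-tang were -0.04 and -0.03. RNA came from whole cultures, so fewer cells of a type and less RNA per cell cannot be told apart.

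**Figure D1:**
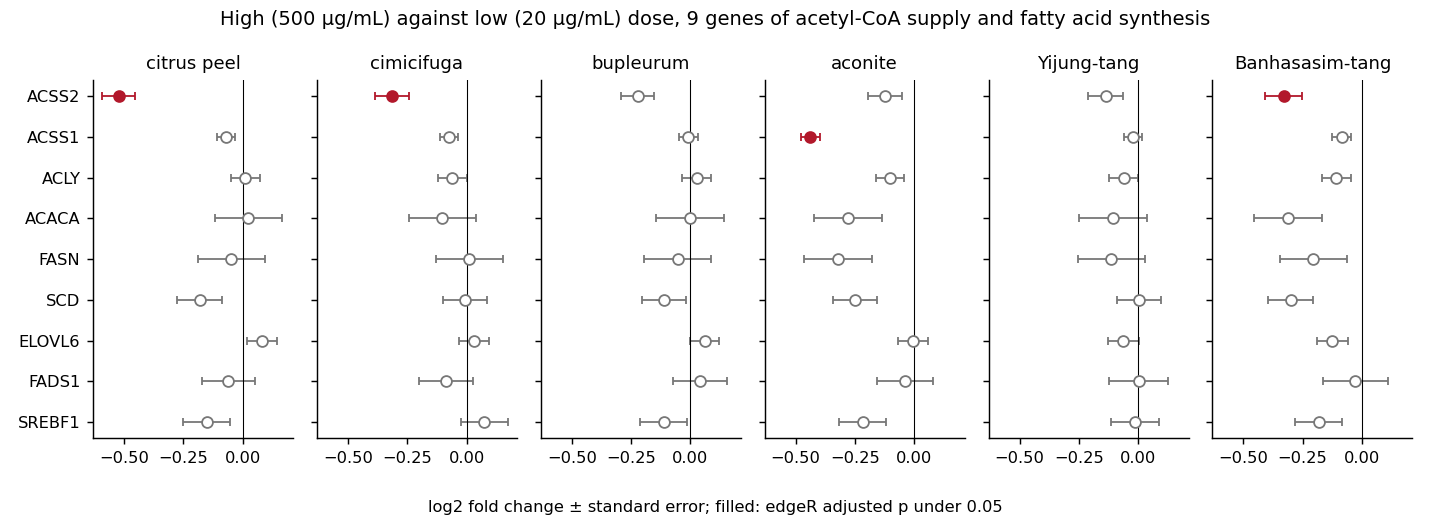
Log2 fold change of 9 members (FADS2, at up to 17 counts, is not drawn) at high against low dose in each of the 6 tested extracts, with bars of 1 standard error and filled red points for an edgeR adjusted p under 0.05. The filled points are ACSS2 in citrus peel (-0.52), cimicifuga (-0.31) and Banhasasim-tang (-0.33) and ACSS1 in aconite (-0.44).

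ACSS2 (ENSG00000131069; chromosome 20, 34872146 to 34927962, plus strand, GRCh38) had its lowest values at the high dose of citrus peel. Vehicle libraries read 21.9, 22.8 and 22.8 CPM. With citrus peel the low dose gave 25.4, 23.1 and 22.4 CPM, the medium dose 22.7, 20.2 and 21.2, and the high dose 16.5, 16.8 and 16.1. The 3 high-dose libraries lay below every other library of the series, and their spread (SD 0.375 CPM) was small beside the gap to the low-dose mean of 23.6 ± 1.52 CPM. The log2 change was -0.52 ± 0.07 (SE, edgeR adjusted p = 4.1e-05). It remained past the threshold when any single library of the comparison was left out, but not when replicate 1 of every group (adjusted p = 0.148) or replicate 3 of every group (0.0598) was.

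In cimicifuga, ACSS2 read 25.2, 24.0 and 22.2 CPM at the low dose, 22.5, 20.4 and 21.4 at the medium dose and 20.1, 17.7 and 19.4 at the high dose. In Banhasasim-tang it read 22.9, 23.1 and 25.9 CPM, then 23.9, 21.8 and 23.7, and then 18.6, 20.9 and 17.8. High-dose and low-dose libraries did not overlap in either extract, as for 8.6% and 6.41% of tested genes in that direction. All high-dose libraries were below the vehicle libraries, a comparison for which no share over all genes was taken. The log2 change was -0.31 ± 0.07 in cimicifuga (edgeR adjusted p = 0.0106) and -0.33 ± 0.08 in Banhasasim-tang (0.0437). Either call was lost when single libraries were left out: in cimicifuga without low replicate 1 (0.11), low replicate 2 (0.0761) or high replicate 2 (0.183), and in Banhasasim-tang without low replicate 1 (0.083), 2 (0.156) or 3 (0.15) or high replicate 2 (0.191). The cimicifuga call was also lost with no filter on low counts (0.0914), and that of Banhasasim-tang when its library set was fitted alone (0.272). Without the 4 libraries that stood apart both calls held, at -0.31 (0.00167, 1.69% of genes lower) and -0.40 (0.0326, 0.0297%).

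In the other 3 tested extracts ACSS2 did not pass the test. Bupleurum gave 24.3, 21.8 and 22.2 CPM at the low and 20.3, 19.2 and 18.98 at the high dose, a log2 change of -0.22 ± 0.07 (edgeR adjusted p = 0.33). Yijung-tang gave 26.2, 23.3 and 23.6 against 22.7, 21.4 and 22.7 CPM (-0.14 ± 0.07, adjusted p = 0.898). Low and high doses did not overlap in either, as for 7.36% and 7.67% of tested genes in that direction. In aconite they overlapped, with 25.3, 23.8 and 26.1 CPM at the low and 22.3, 25.5 and 21.6 at the high dose (-0.12 ± 0.07, adjusted p = 0.277), and the value of 25.5 is that of replicate 2, which stood apart. Without the 4 libraries the aconite change was -0.19 (0.0688).

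Across extracts, the fitted ACSS2 change was below 0 in 6 of 6, as for 6.84% of tested genes. All high-dose libraries were below all low-dose libraries in 5 of 6 extracts, which was so (in at least 5) for 0.455% of tested genes. ACSS2 was also among the 16 genes, 0.0971% of those tested, that fell in at least 3 extracts. Among the others, named here after their values were seen, were VIL1, a microvillus protein, NOX1, the colonic NADPH oxidase, and MUC13, a membrane mucin. The start of ACSS2 overlaps the start of GGT7, a gene that runs the other way on the opposite strand. The library kit keeps strand, and whether counting used it is not given in the sources used here. GGT7 was at 3.03 to 3.35 CPM in vehicle and did not pass the test in any of the 6 extracts, at -0.04 in citrus peel, -0.17 in cimicifuga and -0.09 in Banhasasim-tang.

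**Figure D2:**
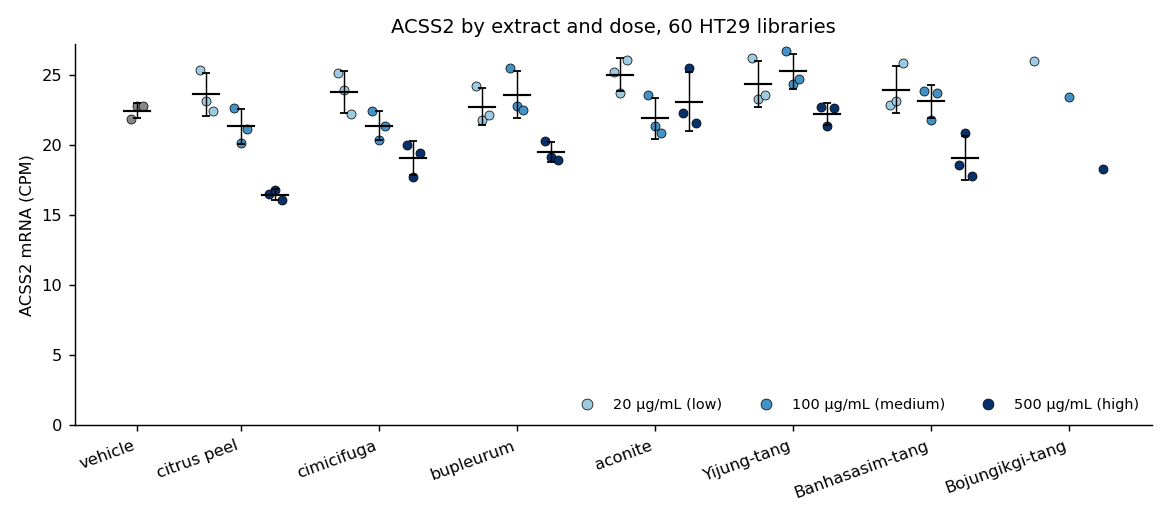
ACSS2 in CPM (axis from 0) in all 60 libraries by extract, with points coloured by dose and bars for the mean and SD of groups of 3. The citrus peel high-dose libraries, at 16.1 to 16.8 CPM, are the lowest, and the high dose also lies under the low dose in cimicifuga, bupleurum, Yijung-tang, Banhasasim-tang and the single Bojungikgi-tang libraries.

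ACSS1 (ENSG00000154930; chromosome 20, 25006230 to 25058980, minus strand), the mitochondrial acetyl-CoA synthetase, changed with aconite and at both dose steps. Vehicle gave 70.1, 72.2 and 73.2 CPM. Aconite gave 73.2, 74.3 and 73.3 CPM at the low dose, 64.9, 59.0 and 63.6 at the medium dose and 54.2, 55.8 and 53.2 at the high dose. The 3 dose groups did not overlap, and the medium and high groups lay below every vehicle library. From low to high the log2 change was -0.44 ± 0.04 (edgeR adjusted p = 1.01e-11). The step from low to medium was -0.24 ± 0.04 (0.000153) and that from medium to high -0.20 ± 0.04 (0.000835). Both steps lost their call with no filter on low counts (0.309 and 0.212) and with set 6 fitted alone (0.114 for the lower step). The lower step also lost it without replicate 2 (0.0643) or 3 (0.0998) of every group, and the upper step without replicate 1 (0.123) or 3 (0.147).

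The aconite call for ACSS1 held with each single library and each replicate number left out (highest adjusted p = 3.22e-05) and without the 4 libraries (-0.46, 2.04e-12). Replicate 2 at the high dose, which stood apart for other genes, was at 55.8 CPM, close to replicates 1 and 3. The call missed the threshold when only the 6 libraries of these 2 groups were fitted (0.0544). In the 5 other tested extracts the log2 change of ACSS1 ran from -0.09 to -0.01, and none passed the test. Its high-dose libraries still lay below its low-dose libraries in citrus peel, cimicifuga and Banhasasim-tang, by -0.07, -0.07 and -0.09 on the log2 scale, where 7.56%, 8.6% and 6.41% of tested genes were separated in that direction. With aconite (9.87%) that made 4 of 6 extracts, a count reached by 1.4% of genes.

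**Figure D3:**
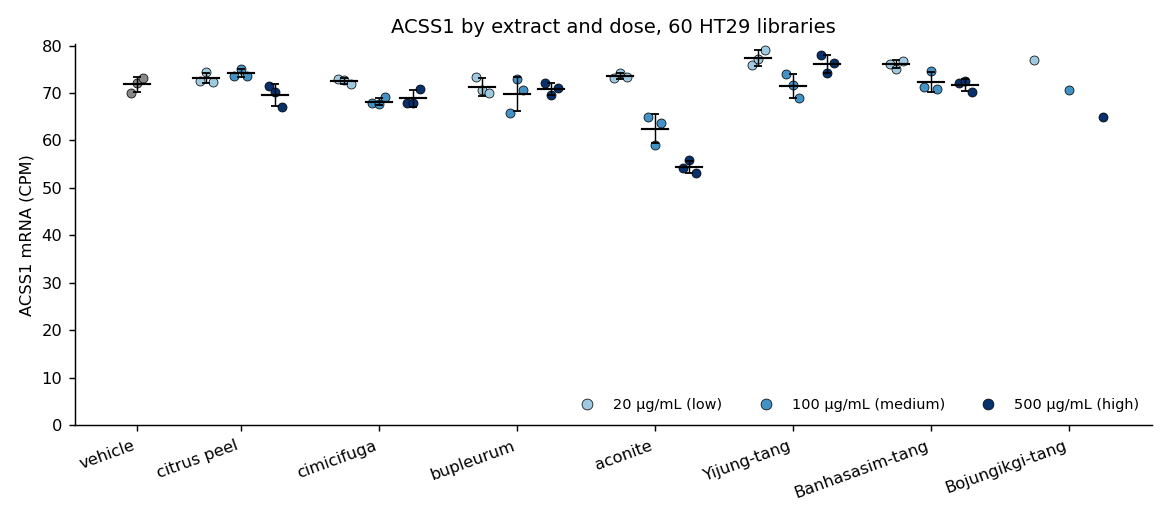
ACSS1 in CPM (axis from 0) in all 60 libraries by extract, with points coloured by dose and bars for the mean and SD of groups of 3. Aconite steps down from 73.6 at the low dose to 62.5 and 54.4 CPM, while the means of the other tested groups lie between 68.2 and 77.4 CPM.

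Whether the dose change of an extract differed from the mean dose change of the 5 others was tested directly. For ACSS1 in aconite it did, with a log2 difference of -0.39 ± 0.04 (9.94e-09, edgeR with Benjamini-Hochberg adjustment). That was 1 of 10 members lower in aconite, where 1.73% of tested genes were. For ACSS2 in citrus peel the difference was -0.30 ± 0.08 with an adjusted p of 0.184, so its larger change there was not separated from that of the other extracts. In aconite the ACSS2 difference was 0.18 ± 0.08 (0.224). No other member passed this test in any extract. Among the extracts with 0 members, 0.109% of genes were lower in citrus peel, 0.0182% in Yijung-tang and 0.0243% in each of cimicifuga, bupleurum and Banhasasim-tang, and DESeq2 called 0 members there, with 0 to 2 at an unadjusted p under 0.05.

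Comparisons with vehicle share the same 3 vehicle libraries and cross library sets. At the high dose, ACSS2 was lower than vehicle in citrus peel, at -0.45 ± 0.07 (edgeR adjusted p = 0.00196, 0.0121% of genes lower), and ACSS1 was lower in aconite, at -0.40 ± 0.04 (1.01e-10, 7.15%). The share of genes lower was 0.528% in cimicifuga, 0.776% in bupleurum, 0.461% in Yijung-tang and 0.37% in Banhasasim-tang, where 0 members were called and 1 to 2 had an unadjusted p under 0.05. ACSS2 stood at -0.24 in cimicifuga (0.082, called by DESeq2 at 0.0493), -0.24 in Banhasasim-tang (0.0949), -0.21 in bupleurum (0.138), -0.02 in Yijung-tang and 0.03 in aconite. The cimicifuga and Banhasasim-tang values passed without the 4 libraries, of which vehicle replicate 1 is 1, at -0.26 (0.0339) and -0.33 (0.0324). The citrus peel call was lost without vehicle replicate 2 (0.0502) and without replicate 1 (0.169) or 3 (0.591) of every group.

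At the medium dose the single call was ACSS1 in aconite, at -0.20 ± 0.04 (edgeR adjusted p = 0.000662, 2.18% of genes lower). It was lost without replicate 3 of every group (0.1), with no filter (0.201) and with smaller fits (0.0595 and 0.0699). In the other extracts 0 members were called, with 0 to 1 at an unadjusted p under 0.05 and 0 by DESeq2, where 0.243% of genes were lower in bupleurum, 0.916% in Yijung-tang, 1.52% in Banhasasim-tang and 0 in the rest. At the low dose 0 members passed in any extract, by edgeR or by DESeq2, with 4 of 60 pairs of member and extract at an unadjusted p under 0.05. The genes called in either direction there were 0.00607% in citrus peel, 0 in cimicifuga, 0.789% in bupleurum, 1.62% in aconite, 1.51% in Yijung-tang and 2.97% in Banhasasim-tang. ACSS2 at the low dose was 0.02 to 0.15 above vehicle and ACSS1 was between -0.01 and 0.11 from it.

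Between high and medium dose, ACSS2 fell in citrus peel (-0.38 ± 0.07, edgeR adjusted p = 0.0448, 0.0121% of genes lower), a call lost when any single library of the 6 was left out (0.0538 to 0.485). ACSS1 in aconite was the other call of edgeR there, where 1.81% of genes were lower. The remaining extracts had 0 called members by edgeR, 1 to 4 at an unadjusted p under 0.05 and, in bupleurum, 1 by DESeq2, with 0.146% of genes lower in cimicifuga, 0.0607% in bupleurum, 0 in Yijung-tang and 0.00607% in Banhasasim-tang. Between medium and low dose, ACSS1 in aconite was the call made (0.334% of genes lower). The other extracts had 0 there, as had all genes, with 0 to 2 members at an unadjusted p under 0.05 and 0 by DESeq2.

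The enzymes that build the chain did not pass the test in any extract at high against low dose. All high libraries still lay below all low libraries for ACLY in cimicifuga and Yijung-tang and for ACACA in cimicifuga and aconite. The same held for FASN in Yijung-tang. In that direction 8.6%, 7.67% and 9.87% of tested genes were separated in cimicifuga, Yijung-tang and aconite. With no filter on low counts, FASN (0.000983), ACACA (0.00731) and SCD (0.0193) passed edgeR's test as lower in aconite, and ACACA (0.00443) and SCD (0.00514) in Banhasasim-tang. The share of all genes called without the filter was not taken. ACLY (chromosome 17, 41866908 to 41930542) read 344 to 379 CPM in vehicle and its log2 fold change ran from -0.11 to 0.03. For ACACA (chromosome 17, 37084988 to 37406818) it ran from -0.31 to 0.02, for FASN (chromosome 17, 82078333 to 82098332) from -0.32 to 0.01, and for SCD (chromosome 10, 100347124 to 100364834) from -0.30 to 0.00. Together with ELOVL6, FADS1, FADS2 and SREBF1 these made 48 pairs of gene and extract, of which 0 passed edgeR's test, 0 passed DESeq2 and 5 had an unadjusted p under 0.05. The 5 were SCD, FASN and SREBF1 in aconite and SCD and ACACA in Banhasasim-tang.

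In those 5 cases the lowest library was replicate 2 of the high dose, which stood apart in each extract. Without high replicate 1 or 3 of aconite, SCD, FASN and SREBF1 passed the test (0.0146 to 0.0459). Without high replicate 3 of Banhasasim-tang, ACACA, ACLY and SCD did (0.0125 to 0.0372), and without replicate 1 SCD did (0.0329). Without high replicate 2 none of these genes was called in either extract. FASN read 1136, 1176 and 1042 CPM at low and 1107, 527 and 1048 at high dose of aconite, a log2 change of -0.32 ± 0.14 (edgeR adjusted p = 0.14) that was -0.05 without the 4 libraries. ACACA in Banhasasim-tang read 588, 608 and 551 CPM at low and 571, 255 and 581 at high dose, which gave -0.31 ± 0.14 (0.208) with all libraries and -0.02 without the 4. The other high-dose libraries lay within or beside the low-dose range, and replicate 2 alone was low. SCD read 1979, 2009 and 1987 against 1896, 1292 and 1839 CPM in aconite, and 1992, 1994 and 1796 against 1771, 1159 and 1762 in Banhasasim-tang. SREBF1 in aconite read 171, 185 and 177 against 176, 110 and 171 CPM, and its change of -0.22 ± 0.10 (0.156) was -0.04 without the 4 libraries. The SCD changes, -0.25 ± 0.09 (0.0791) and -0.30 ± 0.09 (0.119), became -0.09 and -0.13 without the 4 libraries, and groups did not overlap in either extract even then. In the same libraries ACSS2 deviated the other way, by 0.15 and 0.13 above its group mean, where FASN deviated by -0.69 and -0.47.

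**Figure D4:**
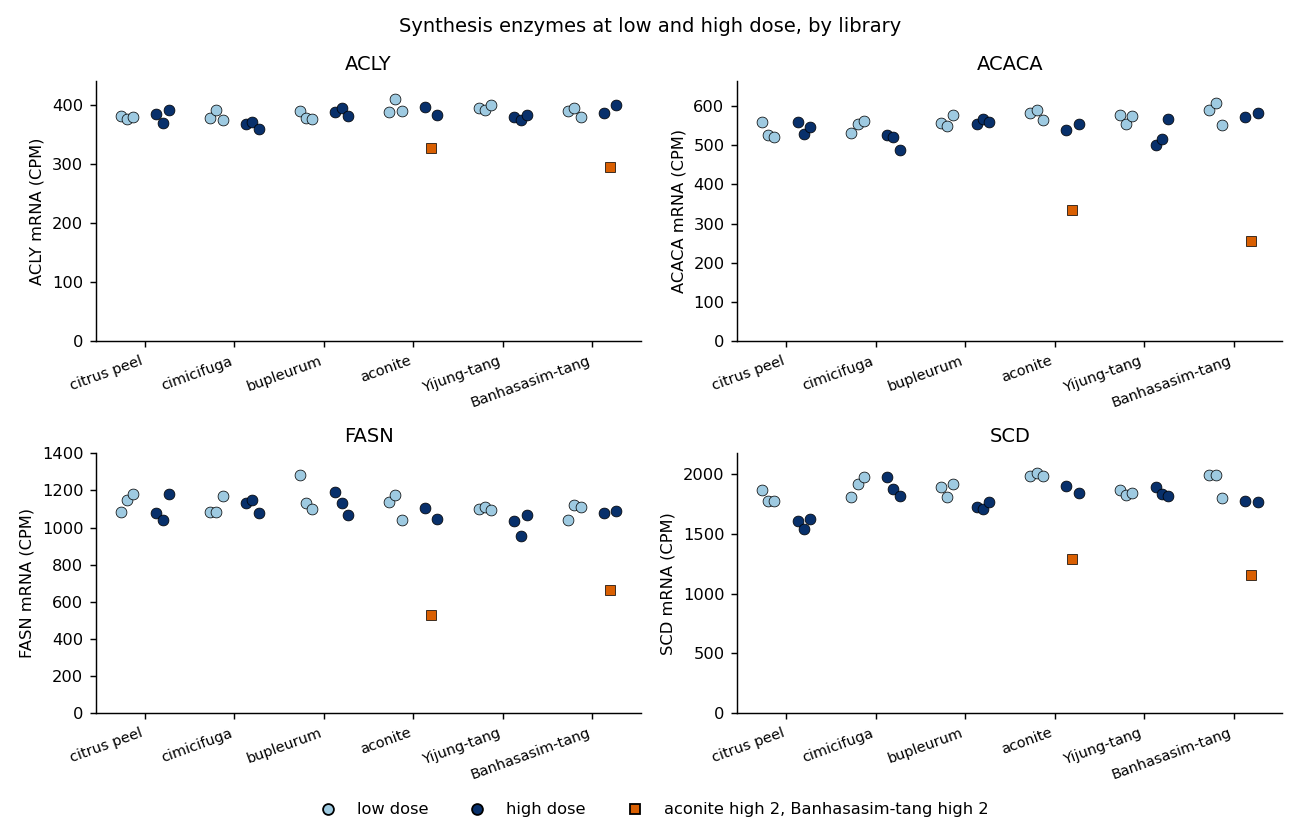
ACLY, ACACA, FASN and SCD in CPM (axes from 0) in each low-dose and high-dose library of the 6 tested extracts, with orange squares for aconite high replicate 2 and Banhasasim-tang high replicate 2. The squares lie below the other libraries in all 4 panels (FASN at 527 and 667 CPM), and the remaining points of high and low dose lie close together.

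SCD, the stearoyl-CoA desaturase that makes oleate, had separated groups in as many extracts as ACSS1, after ACSS2. Citrus peel gave 1862, 1773 and 1777 CPM at low and 1604, 1542 and 1627 at high dose, and bupleurum 1890, 1808 and 1916 against 1723, 1710 and 1764. High-dose libraries were below low-dose libraries in these extracts, in aconite and in Banhasasim-tang, as were those of 7.56%, 7.36%, 9.87% and 6.41% of tested genes. That made 4 of 6 extracts, a count that 1.4% of genes reached. The log2 change in citrus peel was -0.18 ± 0.09 (edgeR adjusted p = 0.98). It passed at the same size without the 4 libraries (-0.18, 0.0193), none of which is a citrus peel library, in a fit where 0.422% of genes were lower. In bupleurum it was -0.11 ± 0.09, and in cimicifuga and Yijung-tang it was -0.01 and 0.00, with groups that overlapped.

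ELOVL6 (chromosome 4, 110045846 to 110199199), which lengthens palmitate, had log2 fold changes of -0.13 to 0.08 at high against low dose. Its high libraries lay above its low libraries in bupleurum, at 78.5, 76.7 and 76.6 against 73.7, 74.3 and 74.5 CPM, as did 7.77% of tested genes. FADS1 (chromosome 11, 61799625 to 61829318, minus strand) and FADS2 (chromosome 11, 61792980 to 61867354, plus strand) make polyunsaturated fatty acids. FADS1 lies inside the span of FADS2 on the other strand, so its 52 to 251 counts and the few of FADS2 are uncertain where the counting ignored strand. The FADS1 values ran from -0.09 to 0.04, and its low and high libraries overlapped in all 6 extracts. For FADS2 the values were -0.20 to 0.64 with standard errors of 0.495 to 0.716, and a change was not detectable at this depth.

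SREBF1 (chromosome 17, 17810399 to 17837002) had log2 fold changes of -0.22 to 0.08 and passed in none of the extracts. It read 163, 171 and 163 CPM in vehicle. In Banhasasim-tang it read 148, 166 and 169 at low and 144, 135 and 146 at high dose, and in bupleurum 191, 181 and 175 against 173, 170 and 163, with no overlap in either, as for 6.41% and 7.36% of tested genes in that direction. The log2 changes there were -0.18 ± 0.10 (edgeR adjusted p = 0.281) and -0.11 ± 0.10 (1). The counts do not separate the SREBP1 forms made from this gene, and SREBP1 is activated by cleavage of the protein, which was not measured.

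In Bojungikgi-tang, with 1 library per dose and no test, ACSS2 read 26.0 CPM at the low, 23.5 at the medium and 18.3 at the high dose. Its log2 ratio of high to low (CPM + 1) was -0.48, with a 95% interval from counting error alone of -0.73 to -0.28. ACSS1 read 76.9, 70.7 and 64.9 CPM (-0.24, interval -0.37 to -0.12) and SREBF1 159, 150 and 134 (-0.25, interval -0.34 to -0.17). The central 95% of 10694 genes that averaged 5 CPM or more lay between -0.31 and 0.28, so ACSS2 was outside that range and ACSS1 and SREBF1 were inside it. ACLY (0.01), FASN (-0.06), SCD (-0.09), ELOVL6 (0.09) and ACACA (0.17) were inside it too. FADS1, at 4.95 and 6.67 CPM, had a ratio of 0.37, above that range, with a counting interval that reached 0. FADS2 had too few counts for a ratio.

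The likeness of expression patterns was described over the 18 group means of the tested extracts, each centred on the mean of its extract's 3 doses, among 9887 candidate genes. These means share libraries, depth and treatments, so r is given without a p. ACSS2 was most like CYP51A1 (r = 0.92) and SC5D (0.901), both enzymes of cholesterol synthesis, and WLS (0.897), the Wnt carrier. ACSS1 was most like SOX4 (0.96), GPR37 (0.957) and LINC00261 (0.947). ACACA and ACLY followed each other (0.952), as did FASN and SREBF1 (0.858), ACACA and FASN (0.854) and, less closely, ACSS2 and SCD (0.702). ACSS2 and ACSS1 were at 0.328. The values of ACACA, ACLY, FASN and SCD include both high-dose libraries that stood apart, whose part in these r was not tested.

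Genes around the pathway were read from lists. Of 6 genes that supply NADPH, the reductant of FASN, 4 rose at high against low dose in aconite (6.23% of tested genes did), 3 in cimicifuga (0.419%) and 1 in bupleurum (0.188%), and 0 in citrus peel, Yijung-tang and Banhasasim-tang, where 0.0121%, 0.0728% and 0.091% of genes rose and 0, 2 and 3 of the list had an unadjusted p under 0.05. ME1, the malic enzyme, read 92.7, 92.7 and 94.7 CPM at low and 137, 152 and 132 at high dose of aconite (0.59 ± 0.06, edgeR adjusted p = 3.18e-10). In cimicifuga ME1 read 91.9, 83.6 and 83.9 against 114, 112 and 117 (0.41 ± 0.06, 1.95e-05), and in bupleurum 83.5, 86.5 and 89.4 against 102, 104 and 110 (0.28 ± 0.06, 0.0115). High and low doses of ME1 did not overlap in these 3 extracts. They did not overlap in citrus peel and Banhasasim-tang either, where ME1 did not pass the test, and they overlapped in Yijung-tang. In bupleurum 7.77% of tested genes were separated in that direction. TKT, transketolase of the pentose phosphate pathway, rose in aconite (0.48 ± 0.05, 2.82e-09) and cimicifuga (0.32 ± 0.05, 0.00015). PGD, which also yields NADPH, rose in aconite (0.35 ± 0.05, 3.68e-06; 0.25, 7.18e-05 without the 4 libraries). Without the 4 libraries 3 of 6 passed as higher in bupleurum (0.386% of genes), ME1 and TKT among them, 3 in cimicifuga (0.963%), 1 in Yijung-tang (0.363%) and 4 in aconite (7.06%), where IDH1 was lower (-0.24) and ME1 (0.53) and TKT (0.46) kept their calls.

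Of 15 tested genes of acetyl-CoA supply and citrate export, 4 rose in aconite, where 6.23% of all tested genes did. In the other 5 tested extracts 0 rose (0.0121% to 0.419% of all genes did), with 0 to 4 at an unadjusted p under 0.05. The rises were small in PDHA1 (0.20 ± 0.05, edgeR adjusted p = 0.00264; 0.12, 0.0424 without the 4 libraries) and DLAT (0.15 ± 0.04, 0.0173), both of pyruvate dehydrogenase, and larger in PDK3, a kinase that inhibits it (0.49 ± 0.15, 0.0216). The fourth, ACAT1, at 0.32 ± 0.11 (0.0484), was at 0.00 without the 4 libraries, where ACAT2, a cytosolic acetyl-CoA acetyltransferase, was lower (-0.32). SLC25A1, the citrate exporter that feeds ACLY, passed in no extract and ran from -0.09 to 0.26. The upper value is that of Banhasasim-tang, where SLC25A1 read 187, 186 and 221 CPM at low and 211, 300 and 200 at high dose. The reading of replicate 2 stood alone, and without the 4 libraries SLC25A1 was at 0.05 there. Of 17 further enzymes of fatty acid chains, ELOVL1 (0.35 ± 0.06, 2.18e-05) and FADS3 (0.34 ± 0.09, 0.0114) rose in aconite, and DLAT, PDK3, ELOVL1 and FADS3 kept their calls without the 4 libraries. Of 14 genes of fatty acid activation and glycerolipids, DGAT2, which closes triglyceride synthesis, rose there (0.23 ± 0.07, 0.029), but not without the 4 libraries (0.0894). Of 19 genes of fatty acid oxidation and PPAR targets, PLIN2, a lipid droplet coat, rose in aconite (0.39 ± 0.09, 0.00367; without the 4 libraries 0.24, 0.0597). In that list 1 gene rose and 1 fell in aconite, and 3 rose and 2 fell without the 4 libraries. Counts of 1 in 14 and 1 in 19 are near the 6.23% of all tested genes that rose in aconite.

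**Figure D5:**
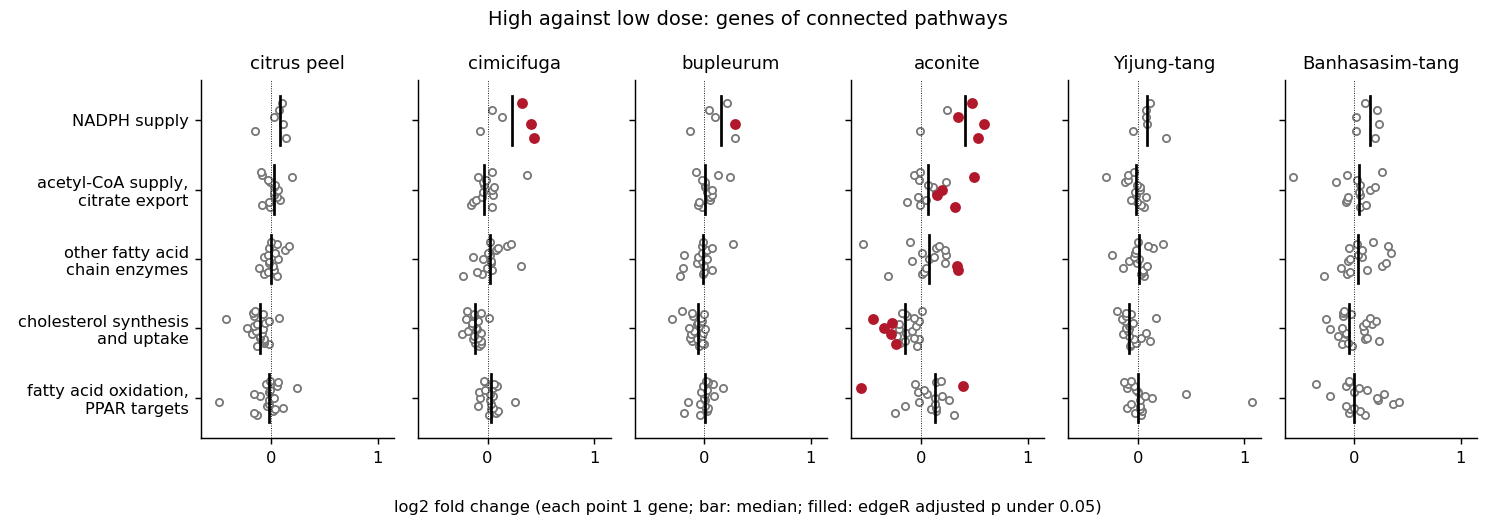
Log2 fold change at high against low dose of the genes in 5 pathway lists (rows) for the 6 tested extracts (panels), with 1 point per gene, a bar at the list's median and filled points for an edgeR adjusted p under 0.05. In aconite the NADPH median is at 0.42 with 4 filled points above 0 and the cholesterol median at -0.15 with 5 filled points below 0, whereas citrus peel, Yijung-tang and Banhasasim-tang have no filled points.

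Cholesterol synthesis shares acetyl-CoA and the SREBP system with fatty acid synthesis. Of its 22 genes, 5 fell in aconite, where 4.85% of all tested genes did, and 0 in the other 5 extracts (0.0182% to 0.479%). In those 5 extracts 1 to 6 genes of the list had an unadjusted p under 0.05. The count in aconite was 11 without the 4 libraries (5.42% of tested genes were lower in that fit), with 2, LSS among them, in citrus peel (0.422%). LSS, lanosterol synthase, read 123, 126 and 129 CPM at low and 103, 92.0 and 102 at high dose of aconite (-0.34 ± 0.05, edgeR adjusted p = 6.9e-06). MVK, the mevalonate kinase, was at -0.27 ± 0.08 (0.0319) and HMGCS1, the synthase ahead of HMG-CoA reductase, at -0.28 ± 0.09 (0.0413; -0.44, 0.00013 without the 4). LSS (-0.29) and MVK (-0.24) also kept their calls without them. The fitted value was below 0 for 21 of 22 genes in aconite, citrus peel and cimicifuga, 20 in bupleurum, 18 in Yijung-tang and 13 in Banhasasim-tang, with medians of -0.15, -0.10, -0.12, -0.06, -0.08 and -0.05. The medians over all tested genes were 0.00, or 0.01 in aconite, and the share of all genes below 0 in each extract was not taken.

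Of 18 tested regulators, 3 rose and 2 fell in aconite, where 6.23% of all tested genes rose and 4.85% fell. In the other 5 extracts 0 passed, with 1 to 3 at an unadjusted p under 0.05. Without the 4 libraries TRIB3 also passed in cimicifuga (0.23, edgeR adjusted p = 0.00366, 0.963% of genes higher) and PRKAB1, a subunit of AMP-activated kinase, in Yijung-tang (-0.21, 0.0307). The share of all genes lower in Yijung-tang in that fit is not given here. TRIB3, a pseudokinase induced by stress, read 43.0, 42.4 and 47.7 CPM at low and 96.6, 89.9 and 93.1 at high dose of aconite (1.07 ± 0.07, edgeR adjusted p = 3.51e-15). INSIG1 holds the SREBP precursors in the endoplasmic reticulum and is itself an SREBP target. In aconite INSIG1 read 189, 173 and 168 CPM at low and 150, 151 and 134 at high dose (-0.29 ± 0.07, 0.00344). Its high libraries also lay below its low libraries in citrus peel, cimicifuga and bupleurum, where it did not pass the test. In that direction 7.56%, 8.6% and 7.36% of tested genes were separated there. In Yijung-tang and Banhasasim-tang the INSIG1 groups overlapped. MLXIP, a partner of MLX in glucose sensing, fell in aconite, at -0.42 ± 0.10 (0.00364) and at -0.21 (0.00554) without the 4 libraries. MLX (0.17 ± 0.05, 0.0289) and NR1H3, which encodes LXR alpha (0.27 ± 0.07, 0.00796), rose in aconite. All 5 kept their aconite calls without the 4 libraries, TRIB3 at 1.10 and INSIG1 at -0.32. SREBF2, the gene of the sterol-regulating SREBP2, passed in no extract. In aconite SREBF2 read 316, 325 and 315 CPM at low and 311, 206 and 323 at high dose (-0.19 ± 0.08, 0.151), where replicate 2 alone was low, and without the 4 libraries it was at -0.01.

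Markers of other cell types were low. Leukocyte markers summed to 7.99 to 15.7 CPM over all libraries, and fibroblast markers to 1.54 to 3 CPM. PTPRC reached at most 0.128 CPM, COL1A2 at most 0.0669, and ADIPOQ was at 0 in all 60 libraries. In aconite, where ACSS1 fell, the leukocyte sum was 13.3 to 15.7 CPM at high and 11.6 to 12 at low dose, and the fibroblast sum 2.52 to 3 against 2.04 to 2.48. Of 5 leukocyte markers 2 were tested and 0 passed, with CD68 at 0.41 (edgeR adjusted p = 0.0526; 0.44, 0.0216 without the 4 libraries). Of 5 fibroblast markers 2 were tested and LUM passed (0.95, edgeR adjusted p = 0.0177), though not without the 4 libraries (0.207). The epithelial sum was 11100 to 12900 against 11000 to 12000 CPM. Of 8 tested epithelial markers 3 were below 0, KRT20 rose (0.23, edgeR adjusted p = 0.0182; 0.06, 0.485 without the 4 libraries) and VIL1 fell (-0.25 ± 0.04, 2.89e-05; -0.24 without the 4). VIL1 also fell in cimicifuga (-0.18 ± 0.04, 0.0171), where ACSS2 fell, and in bupleurum (-0.18 ± 0.04, 0.0492). The part of these in the results was not tested.

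RN7SL2, a signal recognition particle RNA, was below 20 CPM in vehicle and in replicates 1 and 2 of set 5 and at 67 to 114 CPM in its replicate 3. It was above 20 CPM in all libraries of set 6 (40.9 to 238), set 7 (53.6 to 129) and set 8 (45.4 to 69.9). Comparisons of these sets with vehicle, those of ACSS1 in aconite among them, therefore cross this mark. With a term for the split within set 5, ACSS2 stood at -0.52 in citrus peel (edgeR adjusted p = 4.37e-05) and -0.32 in cimicifuga (0.0101).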

How the data were processed

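RNA sequencing of 60 libraries was used. Per the labels' protocols, libraries came from 1 µg of total RNA (RNA integrity number over 7) with a directional MGIEasy kit and 100 bp paired reads. Per the submitters' processing notes, reads were handled with RSEM 1.3.3, STAR 2.7.3a, Trim Galore 0.6.5 and FastQC 0.11.9 on GRCh38. For counting, neither annotation nor strand setting is given in the sources used here. The deposited table holds expected counts (RSEM estimated counts) per gene for 270 columns: 60 matched sample labels and 210 were not used. Of the values 8.68% were not whole, and all were rounded. Symbols came from a name table (56558 identifiers matched) and positions from GENCODE 29 (57055).

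Genes were filtered with filterByExpr, scaled by TMM, and fitted with edgeR 4.0.16 (R 4.3.3) as group means of all 57 libraries, with quasi-likelihood tests and Benjamini-Hochberg adjustment over 16485 genes within each comparison (threshold 0.05). The biological coefficient of variation was 8%. Standard errors are the absolute log2 change over the square root of F. The code was tested on simulated counts. Bojungikgi-tang entered the scaling only.

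The members and lists were chosen with earlier results of these data known. Beside the members, up to 3 genes with the smallest adjusted p were named per list, plus INSIG1, HMGCS1, SREBF2, ME1 and SLC25A1, and per member the 3 most alike genes with a mean log2 CPM of at least 3. Alternatives were DESeq2 1.42.0, RLE scaling, no filter, smaller fits, a replicate block, an RN7SL2 batch term, and libraries left out. List counts without the 4 libraries were added after seeing the data. Some list genes that this rule names are not reported here. IDH1, ACAT1, ACAT2, MLX, NR1H3, PRKAB1, CD68, TKT in bupleurum, and the genes set beside ACSS2 as lower in 3 extracts were named after their values were seen.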

Additional observations from a re-analysis of the deposited data

Results flagged for a closer look

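The dose change of ACSS1 in aconite differed from the mean dose change of the other 5 tested extracts, with a log2 difference of -0.3851 (9.94e-09, edgeR with Benjamini-Hochberg adjustment, and 1.73% of tested genes lower by the same contrast). It was the single pair of member and extract past that test. The difference stayed between -0.41 and -0.37 when libraries were left out, with a highest adjusted p of 0.00133, and between -0.40 and -0.38 under the 6 other alternatives run for it (highest 0.00169). Groups of 3 libraries are too small for a check of single outlying samples.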

How the results depend on the processing

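Most values kept their direction and their side of the threshold: of the log2 changes of members under each alternative, 6281 did, 28 lost a call, 30 gained one, 410 uncalled values changed sign, and 0 called values reversed. Counts of members past the test at high against low dose were 1 in citrus peel, cimicifuga, aconite and Banhasasim-tang and 0 in bupleurum and Yijung-tang. Counts of pairs of member and extract were 2 for high dose against vehicle, 1 for medium, 0 for low, 2 for high against medium dose, 1 for medium against low dose and 1 for an extract against the other 5.

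Without the 4 libraries that stood apart the count was 2 in citrus peel, 4 for high dose and 1 for low dose against vehicle. With the library set fitted alone it was 2 in citrus peel and 0 in Banhasasim-tang, for medium dose against vehicle, for high against medium and for medium against low dose. With no filter it was 0 in cimicifuga, 4 in aconite, 3 in Banhasasim-tang, 0 for medium dose against vehicle, 5 for high against medium and 0 for medium against low dose. With the compared groups alone it was 0 in aconite, in Banhasasim-tang, for high and for medium dose against vehicle and for high against medium dose. The causes were not tested, but the smaller fits have fewer libraries to estimate the spread. Among the alternatives, the share of all genes called was taken only without the 4 libraries at high against low dose. The counts of members under the other alternatives, here and below, therefore cannot be set against such a share.

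With libraries left out, 1 at a time or by replicate number, counts ran from 0 to 1 in citrus peel and cimicifuga, 1 to 4 in aconite, 0 to 4 in Banhasasim-tang, and stayed at 0 in bupleurum and Yijung-tang. They ran from 1 to 3 for high, 0 to 5 for medium and 0 to 1 for low dose against vehicle, from 0 to 5 for high against medium, 0 to 1 for medium against low dose, and stayed at 1 for an extract against the other 5.

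The main fit did not pair libraries by replicate number. In no comparison were all 3 correlations of same-numbered deviations over 0.1, yet in some extracts libraries went with their number. At high against low dose, 6 of 6 libraries were closest to their own number in Yijung-tang (correlations of 0.06 to 0.25). The count was 5 in bupleurum (0.02 to 0.37), 4 in citrus peel (-0.01 to 0.45), 2 in cimicifuga, and 0 in aconite and Banhasasim-tang. In set 5, RN7SL2 also set replicate 3 apart from replicates 1 and 2. With the replicate block the count in aconite was 2, since SCD passed (-0.26, edgeR adjusted p = 0.0491); no other count changed by more than 1.5 times under the block.

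Of the pathway lists, aconite's cholesterol count went from 5 to 11 and bupleurum's NADPH count from 1 to 3 without the 4 libraries. Aconite's oxidation and PPAR list went from 1 higher and 1 lower to 3 and 2, its further chain enzymes from 2 to 3 higher, and 1 gene each of its NADPH and acetyl-CoA supply lists was lower. From 0, 2 cholesterol genes passed in citrus peel, 1 regulator in cimicifuga and 1 in Yijung-tang, 1 gene of acetyl-CoA supply and 2 chain enzymes in cimicifuga, and 1 NADPH gene in Yijung-tang. Depth limits FADS2 and FADS1, and small changes in set 7, whose libraries had a median of 16.4 M counts.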
